A study of Mus musculus with 6 samples.

Results

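Potassium channel subunit genes were described in primary mouse ADSCs (adipose-derived stromal cells, fibroblast-like cells isolated from fat) after contact with regulatory T cells. Members were all genes whose symbol consists of Kcn, further letters and a closing number, which gave 92 of the 22186 genes in the table. The comparison covered the 19 members that averaged 1 TPM or more over the 6 libraries, where TPM (transcript share scaled to a fixed sum per library) corrects for gene length. The other 73 members lay below that level, and 16 of them were listed at 0 in every library. Wild-type ADSCs co-cultured with Treg (regulatory T cells) for 48 h gave 3 libraries, and wild-type ADSCs kept as controls gave 3 libraries. Messenger RNA was captured on beads before library construction, and the number of each library is also its batch in the labels. No control was co-cultured with another cell type, so an effect particular to Treg and an effect of co-culture as such cannot be told apart. Nothing in the labels states that the replicates are separate cultures or animals. The p-values therefore measure the spread among these 6 libraries alone, which may be only technical.

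Potassium channels let potassium leave the cell and thereby hold the membrane potential negative. Pore-forming subunits fall into voltage-gated channels, channels gated by calcium or sodium, inward rectifiers (Kcnj) and tandem-pore leak channels (Kcnk), while auxiliary subunits (Kcnab, Kcne, Kcnip, Kcnmb) change the gating, assembly or surface level of the pores. In human myoblasts, hyperpolarization through potassium channels precedes fusion, and in fibroblasts calcium-activated channels shape proliferation. Of the 92 members, 77 encode pores and 15 encode auxiliary subunits.

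The potassium channel transcripts of control ADSCs were dominated by the auxiliary subunit gene Kcne4, which was 79.8% lower after Treg co-culture. Kcne4 and the auxiliary subunit gene Kcnab1 fell, whereas the pore genes Kcnn3 and Kcnk13 rose. The tandem-pore gene Kcnk2 (lower) and the calcium-activated gene Kcnn4 (higher) also passed the threshold, but both calls depended on single libraries. The remaining 12 members tested did not pass. The test was limma on log2(TPM + 1) over 12405 genes, with a Benjamini-Hochberg adjusted p of 0.05 as the threshold. By this test 4 of 19 members were higher and 3 lower, or 36.8% in all, against 37.8% of all genes tested (19.8% higher and 18.0% lower). The share of members called was close to that of all genes in this fit. With batch as a block, 3 of 19 members were higher and 2 lower (26.3%), against 36.2% of all genes. The median log2 fold change was -0.06 over the 19 members, 0.00 over all genes tested and -0.04 over genes tested that averaged 1 to 5 TPM.

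**Figure D1:**
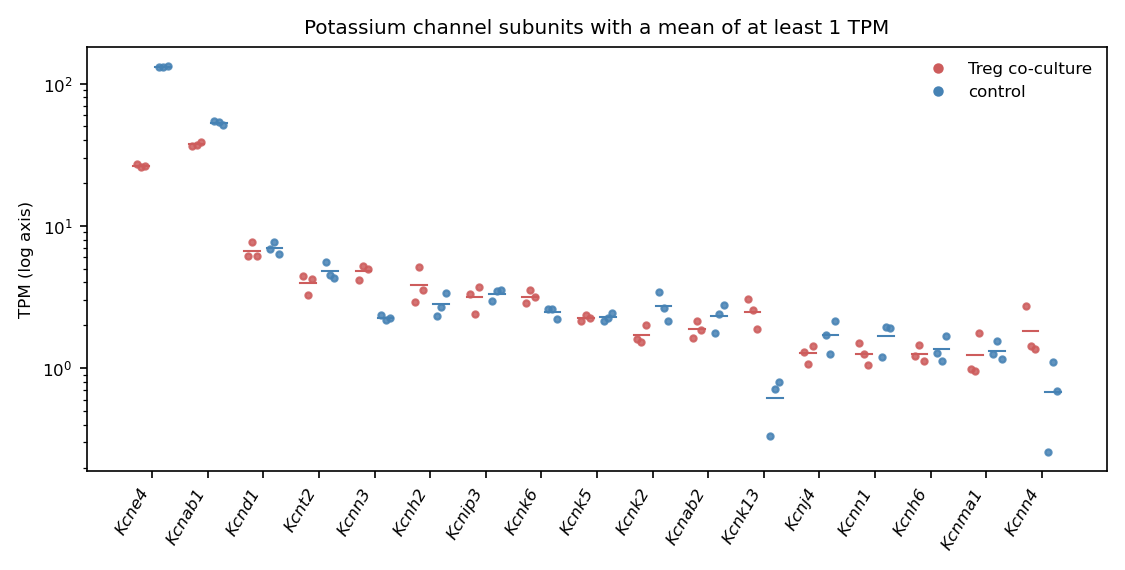
TPM (log axis) of 17 of the 19 potassium channel subunit genes that averaged 1 TPM or more, with a point per library and a line at each group mean (Treg co-culture left, control right of each gene). Kcne4 lies at 25.8 to 27.0 TPM after Treg co-culture and at 130 to 132 TPM in controls, and most of the other genes average between 1 and 5 TPM.

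Promoter sequences of the falling gene Kcne4 and of the rising genes Kcnn3 and Kcnk13 are shown because these members moved clearly in opposite directions and have a single entry each in the promoter table. Each runs from 250 bases before to 50 bases after the start (RefSeq, GRCm38.p6, plus strand), namely chr1:78816661-78816960 for Kcne4, chr3:89519914-89520213 for Kcnn3 and chr12:99964249-99964548 for Kcnk13. Capitals mark the E-box letters CANNTG, the motif of muscle and other basic helix-loop-helix factors.
Kcne4: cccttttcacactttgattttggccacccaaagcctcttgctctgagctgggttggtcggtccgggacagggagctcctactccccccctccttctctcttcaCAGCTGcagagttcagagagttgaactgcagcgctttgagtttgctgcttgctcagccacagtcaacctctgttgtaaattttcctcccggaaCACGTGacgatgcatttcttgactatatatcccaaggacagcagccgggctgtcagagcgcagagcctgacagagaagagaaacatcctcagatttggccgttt
Kcnn3: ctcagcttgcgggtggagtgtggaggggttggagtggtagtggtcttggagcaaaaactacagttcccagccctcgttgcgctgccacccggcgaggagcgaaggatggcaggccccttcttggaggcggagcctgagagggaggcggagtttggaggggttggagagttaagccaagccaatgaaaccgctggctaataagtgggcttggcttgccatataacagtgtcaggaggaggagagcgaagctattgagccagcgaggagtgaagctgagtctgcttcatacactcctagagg
Kcnk13: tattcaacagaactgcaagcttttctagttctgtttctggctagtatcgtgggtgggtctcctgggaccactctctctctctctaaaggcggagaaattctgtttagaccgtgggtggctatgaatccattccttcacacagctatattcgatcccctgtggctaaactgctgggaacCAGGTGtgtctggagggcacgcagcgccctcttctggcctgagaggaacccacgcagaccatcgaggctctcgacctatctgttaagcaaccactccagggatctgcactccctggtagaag
The Kcne4 window held 2 E-boxes, CAGCTG and CACGTG. The Kcnk13 window held 1, CAGGTG, and the Kcnn3 window held 0. Searched on both strands, CANNTG was in 72.3% of all 32851 promoters, CAGCTG in 16.3% and CACGTG in 7.15%, and the last pair overlap CANNTG by construction. Of the 19 members tested, 15 had a promoter in the RefSeq table, with 25 windows in all. CANNTG was in 18 of these 25 windows (72.0%), CAGCTG in 6 (24.0%) and CACGTG in 5 (20%). A match is a description of the letters and not evidence of binding.

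Among the auxiliary subunits, 2 of 4 tested fell and 0 rose. Kcne4 encodes a single-span membrane protein that suppresses currents of several voltage-gated channels, among them those of Kcnq1 and Kcna3. It had 27.0, 25.8 and 26.5 TPM in the 3 Treg co-culture libraries, against 131, 130 and 132 TPM in the 3 controls. The groups did not come near each other, and the libraries within each group differed little. On the log2 scale it fell by 2.27 (SE 0.04, limma adjusted p = 1.97e-10), and the within-batch differences were -2.23, -2.29 and -2.28. Among all 12405 genes tested, it was the second lowest by log2 fold change, as rank 2 from the bottom.

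Kcnab1 encodes a cytoplasmic beta subunit that speeds inactivation of Kcna-type channels. Its level was 36.7, 37.3 and 38.8 TPM after Treg co-culture, against 54.3, 53.3 and 51.3 TPM in controls. Every co-culture library lay below every control. The fall was 29.0% in mean TPM (log2 fold change -0.48, SE 0.05, limma adjusted p = 2.24e-05), with within-batch differences of -0.55, -0.50 and -0.39. Kcnab2, a further beta subunit, averaged 1.88 ± 0.258 TPM after co-culture and 2.32 ± 0.514 TPM in controls (SD, n = 3 each). Kcnip3, a calcium sensor that binds Kcnd channels, averaged 3.14 ± 0.655 TPM after co-culture and 3.33 ± 0.322 TPM in controls (SD, n = 3 each). Neither passed the threshold, with limma adjusted p = 0.364 for Kcnab2 and 0.726 for Kcnip3.

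The composition of the summed transcripts of all members also shifted, with Kcne4 as the part that fell most. The summed TPM of all 92 members was 128, 133 and 131 in the co-culture libraries, against 239, 238 and 239 in controls. Kcne4 made up 19.4% to 21.1% of that sum after co-culture and 54.6% to 55.4% in controls. All auxiliary subunits together summed to 70.0 to 72.5 TPM after co-culture and 192 TPM in each control. The pore-forming subunits summed to 56.6 to 62.8 TPM after co-culture and 46.0 to 47.0 TPM in controls. This higher sum is not a shift of the whole class, since 6 of the 15 pore genes tested had a log2 fold change above 0 and 9 had one below 0. The auxiliary to pore ratio was thus 1.20 ± 0.0796 after co-culture and 4.11 ± 0.0485 in controls (SD, n = 3 each). These sums describe levels and were not tested.

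**Figure D2:**
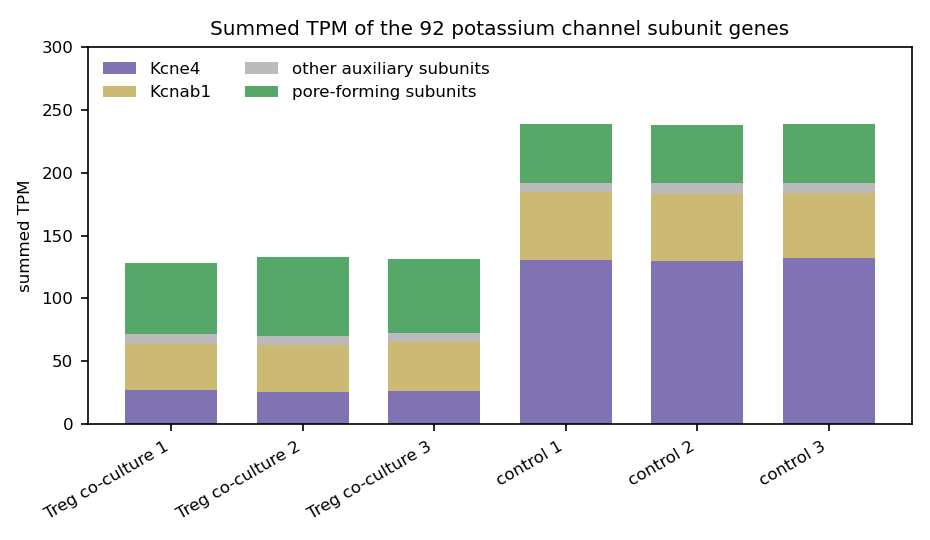
Summed TPM of the 92 potassium channel subunit genes in each library (Treg co-culture left, control right), stacked as Kcne4, Kcnab1, other auxiliary subunits and pore-forming subunits. The pore-forming part is 56.6 to 62.8 TPM after Treg co-culture and 46.0 to 47.0 TPM in controls, while the Kcne4 part is the one that shrinks most.

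The known Kcna partners of Kcnab1 were nearly silent in both groups. The 8 Kcna genes summed to 1.28 ± 0.101 TPM after co-culture and 1.18 ± 0.381 TPM in controls (SD, n = 3 each), far below Kcnab1 itself on the same length-corrected scale. Kcnq1, a pore that Kcne4 suppresses, was at 0.0730, 0.221 and 0 TPM after co-culture and 0.201, 0.103 and 0 TPM in controls.

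Of the voltage-gated pores, 1 of 5 tested rose and 0 fell, and the 3 described here did not pass. Kcnd1, a fast-inactivating A-type pore, had 6.12, 7.70 and 6.17 TPM after co-culture and 6.88, 7.64 and 6.33 TPM in controls. The groups overlapped, and the 95% interval of its log2 fold change ran from -0.31 to 0.19. Kcnh2, the pore that carries the rapid repolarizing current of heart muscle, had 2.89, 5.14 and 3.55 TPM after co-culture and 2.34, 2.70 and 3.39 TPM in controls. Its groups overlapped too (log2 fold change 0.33, SE 0.18, limma adjusted p = 0.174). The related pore Kcnh6 averaged 1.26 ± 0.165 TPM after co-culture and 1.36 ± 0.294 TPM in controls (SD, n = 3 each). The limma adjusted p was 0.728 for Kcnd1 and 0.805 for Kcnh6.

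Of the pores gated by calcium or sodium, 2 of 5 tested rose and 0 fell. Kcnn3 encodes a small-conductance calcium-activated channel that skeletal muscle carries when immature or denervated. It had 4.16, 5.24 and 5.00 TPM after Treg co-culture, against 2.36, 2.17 and 2.25 TPM in controls. The groups did not overlap, and the controls lay close together. The mean was 2.13-fold higher (log2 fold change 0.83, SE 0.12, limma adjusted p = 0.00047), with within-batch differences of 0.62, 0.98 and 0.89.

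Kcnn4 encodes the intermediate-conductance calcium-activated channel of red blood cells, lymphocytes and fibroblasts. Its level was 2.71, 1.42 and 1.36 TPM after Treg co-culture, against 0.257, 1.10 and 0.695 TPM in controls. The groups did not overlap, but Treg co-culture 1 was high and control 1 was low. The rise was 0.75 on the log2 scale (SE 0.24, limma adjusted p = 0.0337), and 1.40 with a pseudocount of 0.1. The within-batch differences were 1.56, 0.20 and 0.48, and with batch as a block the adjusted p was 0.0631. The adjusted p was also 0.113 without control 1 and 0.0677 without control 3, and without Treg co-culture 1 the gene averaged 0.967 TPM and fell below the filter. Its mean in controls, 0.684 TPM, was itself under the filter, so Kcnn4 was tested only because of its co-culture level.

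The other small-conductance channel gene tested, Kcnn1, averaged 1.26 ± 0.219 TPM after co-culture and 1.69 ± 0.432 TPM in controls (SD, n = 3 each). The sodium-activated Kcnt2 had 4.42, 3.26 and 4.21 TPM after co-culture and 5.54, 4.50 and 4.31 TPM in controls. The large-conductance channel Kcnma1 averaged 1.23 ± 0.453 TPM after co-culture and 1.32 ± 0.205 TPM in controls (SD, n = 3 each). All 3 genes had overlapping groups and did not pass, with limma adjusted p = 0.316 for Kcnn1, 0.222 for Kcnt2 and 0.799 for Kcnma1.

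Tandem-pore genes went both ways, with 1 of 4 tested higher and 1 lower. Kcnk13, a leak channel known from microglia, had 3.04, 2.55 and 1.89 TPM after Treg co-culture, against 0.334, 0.710 and 0.801 TPM in controls. All co-culture libraries were above all controls, by 4.06-fold in the mean. On the log2 scale it rose by 1.11 (SE 0.19, limma adjusted p = 0.00113), and by 1.90 with a pseudocount of 0.1. Within batches it was 1.60, 1.06 and 0.68. Like Kcnn4, Kcnk13 passed the filter only through the co-culture group, since the controls averaged 0.615 TPM.

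Kcnk2, a leak channel opened by membrane stretch, had 1.59, 1.51 and 2.00 TPM after Treg co-culture, against 3.45, 2.64 and 2.13 TPM in controls. The groups did not overlap, but control 3 lay just above Treg co-culture 3. It fell by 0.46 on the log2 scale (SE 0.16), at the threshold with limma adjusted p = 0.0499. The within-batch differences were -0.78, -0.53 and -0.06, and with batch as a block the adjusted p was 0.0766. The call was also lost without Treg co-culture 1 (limma adjusted p = 0.110), Treg co-culture 2 (0.130), Treg co-culture 3 (0.0534), control 1 (0.176) or control 2 (0.0985). It was kept without control 3 (0.0291).

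Kcnk6, a weakly inward-rectifying leak channel, had 2.85, 3.56 and 3.14 TPM after co-culture and 2.60, 2.59 and 2.21 TPM in controls. Its groups did not overlap, yet it missed the threshold (log2 fold change 0.27, SE 0.13, limma adjusted p = 0.130). Groups did not overlap for 8 of the 19 members (42.1%), against 49.3% of all genes tested. The acid-inhibited, alkali-opened leak channel Kcnk5 averaged 2.26 ± 0.103 TPM after co-culture and 2.28 ± 0.148 TPM in controls (SD, n = 3 each). The 95% interval of its log2 fold change ran from -0.29 to 0.28.

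**Figure D3:**
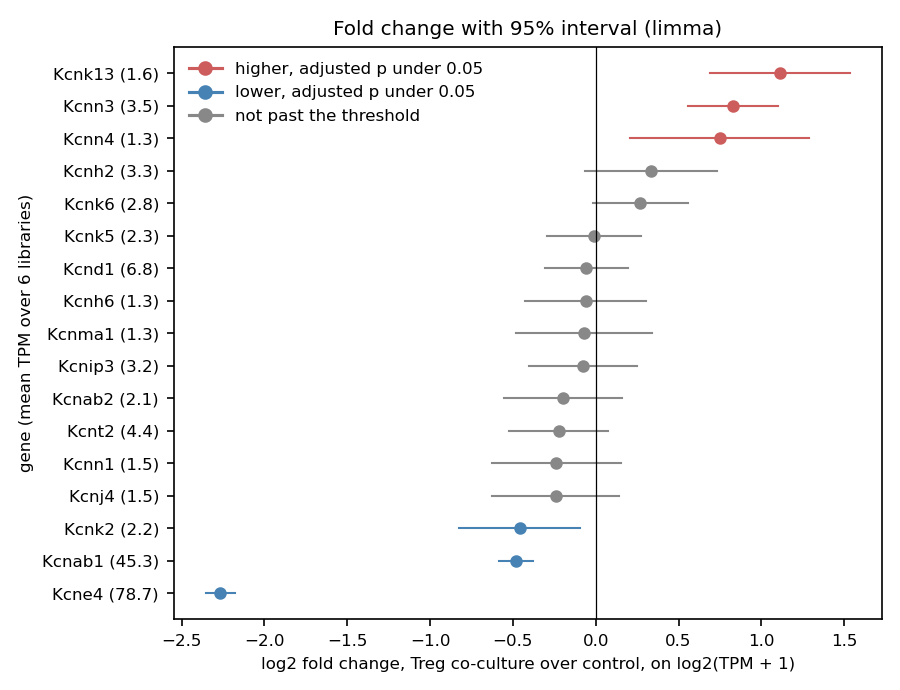
Log2 fold change (Treg co-culture over control, log2(TPM + 1) scale) with limma's 95% interval for 17 of the 19 members tested, coloured by call, with the mean TPM beside each name. Kcnk13, Kcnn3 and Kcnn4 lie above 0, Kcnk2, Kcnab1 and Kcne4 below 0, and the intervals of the other 11 shown cross 0.

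Inward rectifiers were represented by 1 tested gene, Kcnj4, which averaged 1.27 ± 0.183 TPM after co-culture and 1.70 ± 0.440 TPM in controls (SD, n = 3 each). It did not pass (log2 fold change -0.24, SE 0.17, limma adjusted p = 0.299). Across the 12 members that did not pass, log2 fold changes ran from -0.24 to 0.33, and 10 of the 12 were below 0. These 12 were picked by not passing. Of all 15 members averaging 1 to 5 TPM, 5 were above 0, against 878 of 1948 genes tested at that level. The 95% intervals of the 12 reached as far as -0.63 and 0.74, so a change of that size in single members was not excluded at this precision. Precision followed the level: SE was 0.04 to 0.11 for the 4 members averaging at least 5 TPM and 0.12 to 0.24 for the 15 between 1 and 5 TPM. Of those 15, 3 were higher and 1 lower (26.7% in all), against 21.3% of all genes tested at that level (10.5% higher and 10.8% lower). Among the 3 higher, Kcnk13 and Kcnn4 entered only through their co-culture level, so no excess can be read from this share.

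Just under the filter, between 0.5 and 1 TPM on average, lay 6 members, which were not part of the comparison above. Kcnf1, an electrically silent subunit that modifies other voltage-gated pores, had 1.24, 0.962 and 1.34 TPM after co-culture, against 0.383, 0.0840 and 0.360 TPM in controls. Its groups did not overlap, as for 20.1% of all genes at this level. The inward rectifiers Kcnj15 and Kcnj2, the M-current pore Kcnq5 and the auxiliary subunits Kcnab3 and Kcnmb4 had overlapping groups. Kcnj2, which takes part in the hyperpolarization of human myoblasts, had 0.698, 1.06 and 0.712 TPM after co-culture and 1.23, 0.912 and 0.950 TPM in controls. Kcnmb4 varied widely within the co-culture group, at 0.766, 1.06 and 0.0840 TPM.

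A further 51 members averaged above 0 but under 0.5 TPM. Of the 57 members above 0 and under 1 TPM, 3 had all co-culture libraries above all controls and 2 had all below. Over all genes of that range, groups did not overlap for 10.4%. Beside Kcnf1, these members were Kcnj12, Kcnk12, Kcnip4 and Kcnk7, named after their values were seen. Kcnj12, a strong inward rectifier of muscle, had 0.946, 0.634 and 0.574 TPM after co-culture, against 0.220, 0.193 and 0.276 TPM in controls. Kcnk7, a tandem-pore family member, was listed at 0 in all 3 co-culture libraries and at 0.584, 0.239 and 0.513 TPM in controls.

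When limma was run with no filter, 25.4% of 16952 genes passed, while 6 of the 76 members that entered were higher and 3 lower (11.8%). These shares are not alike in level, since 19 of the 76 members averaged at least 1 TPM, against 12405 of the 16952 genes. In that fit Kcnf1 (log2 fold change 0.78, adjusted p = 0.00333), Kcnj12 (0.48, adjusted p = 0.0104) and Kcnk12 (0.33, adjusted p = 0.0447) were higher and Kcnk7 (-0.52, adjusted p = 0.00752) lower. Kcnip4 missed the threshold (-0.26, adjusted p = 0.0597). The voltage-gated Kcnh1, which also takes part in the hyperpolarization of human myoblasts and was looked up for that role, stood at 0.301, 0.302 and 0.262 TPM after co-culture. In controls it stood at 0.256, 0.188 and 0.482 TPM, so the groups overlapped.

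**Figure D4:**
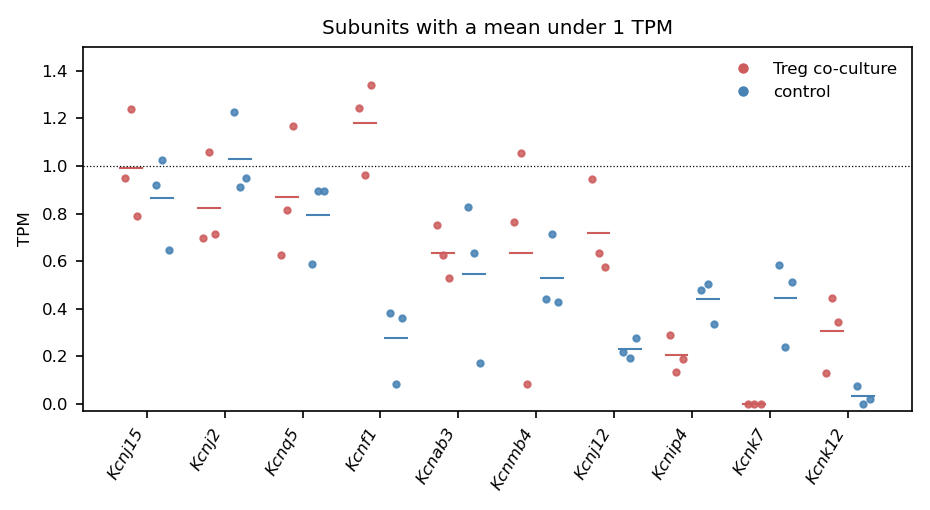
TPM per library (Treg co-culture left, control right of each gene, line at the group mean) for members averaging under 1 TPM, namely the 6 between 0.5 and 1 TPM and 4 lower ones whose groups did not overlap. Kcnf1 and Kcnj12 are higher in every co-culture library than in any control, and Kcnk7 is listed at 0 in all co-culture libraries.

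Of 11 genes for proteins that join potassium channels but carry other names, 3 were tested, 1 rose and 0 fell (33.3% called, against 37.8% of all genes tested). Dpp6, a partner of Kcnd channels, had 1.90, 1.87 and 1.88 TPM after co-culture, against 0.568, 0.775 and 1.22 TPM in controls (log2 fold change 0.65, SE 0.17, limma adjusted p = 0.0132). Its control mean, 0.853 TPM, was under the filter, so Dpp6 too was tested only because of its co-culture level. Its pore partner Kcnd1 is the gene described above with overlapping groups. Abcc9, the sulfonylurea receptor of ATP-sensitive channels, averaged 2.56 ± 0.357 TPM after co-culture and 2.46 ± 0.385 TPM in controls (SD, n = 3 each). The ATP-sensitive pores that it needs were far lower per length, with Kcnj8 at 0.0917 ± 0.0696 TPM after co-culture and 0.0870 ± 0.0802 TPM in controls (SD, n = 3 each). Kcnj11, also such a pore, was at 0.217 ± 0.141 TPM after co-culture and 0.0707 ± 0.0830 TPM in controls (SD, n = 3 each), with overlapping groups. Amigo1, a transmembrane partner of voltage-gated potassium channels, averaged 2.98 ± 0.0305 TPM after co-culture and 3.25 ± 0.301 TPM in controls (SD, n = 3 each).

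The sodium-potassium pump builds the gradient that these channels discharge. Transcripts of 15 listed pump and FXYD regulator genes summed to 774 to 790 TPM after co-culture and 741 to 758 TPM in controls. The 92 channel members summed to 128 to 133 TPM after co-culture and 238 to 239 TPM in controls. Of 9 pump and FXYD genes tested, 4 rose and 3 fell (77.8% called, against 37.8% of all genes tested), and the list median was 0.14. Atp1b3, a beta subunit, averaged 153 ± 1.49 TPM after co-culture and 139 ± 3.35 TPM in controls (SD, n = 3 each), a rise of 0.14 on the log2 scale. The other beta subunits tested, Atp1b1 (log2 fold change -0.17) and Atp1b2 (-0.59), fell. The call of Atp1b2 was lost without Treg co-culture 3, control 1 or control 2. Among the FXYD regulators of the pump, Fxyd6 rose (log2 fold change 0.63) and Fxyd1 fell (-0.78), with 28.8, 38.6 and 35.9 TPM after co-culture against 60.1, 59.8 and 58.2 TPM in controls. The limma adjusted p of Fxyd1, Fxyd6 and Atp1b3 ran from 7.61e-05 for Fxyd1 to 0.00514 for Atp1b3.

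Voltage-gated sodium and calcium channels, which depolarize the membrane, changed in both directions. Of 5 sodium channel genes tested, 1 rose and 2 fell (60% called, against 37.8% of all genes tested), with a median log2 fold change of -0.17. Scn7a, a sodium-sensing relative of the sodium channel pores, fell (log2 fold change -0.63, limma adjusted p = 8.88e-05), while the pore gene Scn2a (-0.17) did not pass (0.351), although it did without limma's trend (0.0192).

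Of 11 calcium channel genes, 4 rose and 5 fell (81.8% called, against 37.8% of all genes tested), with a median of -0.16. Genes averaging 1 to 5 TPM were called less often (21.3%), and of the 11, 10 averaged at least 5 TPM. With the filter at 5 TPM, 4 of these 10 were higher and 5 lower, against 2288 higher and 2065 lower of 10458 genes. The skeletal muscle pore Cacna1s (0.81), its gamma subunit Cacng1 (1.02) and Cacng6 (1.15) rose, and the T-type pore Cacna1g fell (-0.54), each with a limma adjusted p of at most 0.000194. The number of lower calcium channel genes was 2 when Treg co-culture 1, Treg co-culture 3 or control 3 was left out. Of 6 cation-chloride cotransporters, 1 rose and 0 fell (16.7% called, against 37.8% of all genes tested). That gene, Slc12a7, exports potassium with chloride (log2 fold change 0.27, limma adjusted p = 0.0426), with an adjusted p of 0.0547 with batch as a block. It kept its call without Treg co-culture 3, and leaving out any other library raised its adjusted p to between 0.0767 and 0.147. The pair of hyperpolarization-activated genes tested, Hcn2 and Hcn4, did not pass, with limma adjusted p = 0.326 and 0.636.

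**Figure D5:**
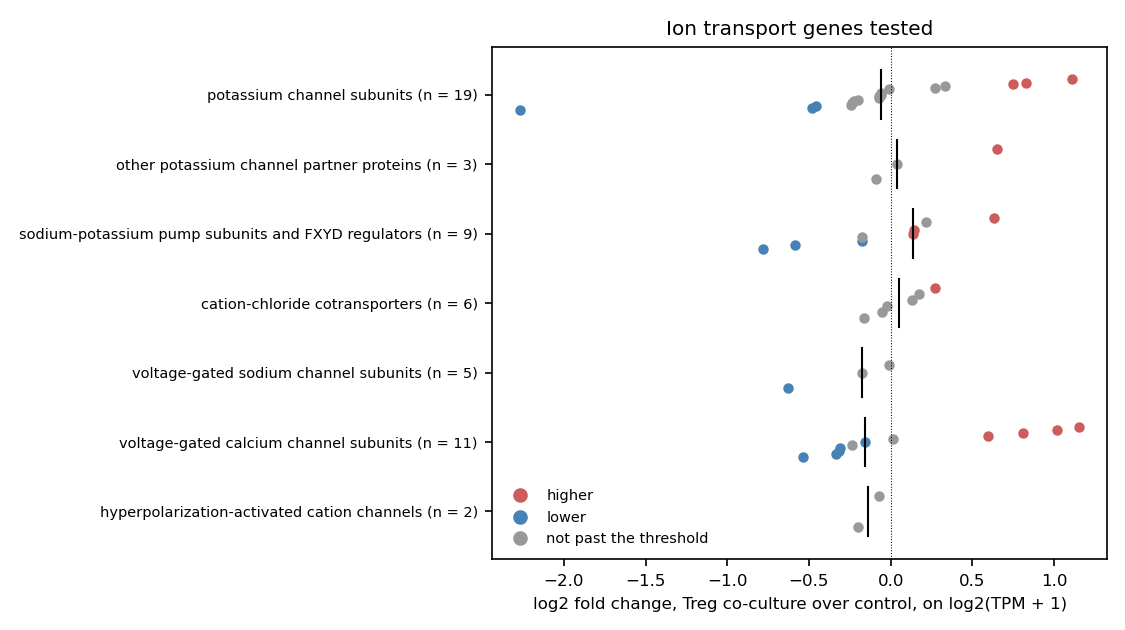
Log2 fold change (Treg co-culture over control, log2(TPM + 1) scale) of genes tested in the potassium channel group and in 6 related lists, coloured by call, with a bar at each list's median over all its tested genes. The medians lie between -0.17 and 0.14, and the points run from Kcne4 at -2.27 to Cacng6 at 1.15.

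Markers of cell types, those of the cultured adipose stromal cells among them, also differed in part between the groups. Of all genes tested, 37.8% were called. All 6 skeletal muscle markers tested were higher, with a summed level of 2317 to 2384 TPM after co-culture and 842 to 894 TPM in controls. Of 9 adipose stromal markers, 7 were lower and 1, Eng, was higher (7631 to 7991 and 8815 to 9336 TPM). Most of the adipose stromal sum was Col1a1, with a mean of 5939 TPM after co-culture and 6705 TPM in controls. Bulk RNA cannot tell fewer cells of a type from less RNA per cell. The part of these shifts in the channel results was not tested. Of the T cell markers, Cd3e, Cd3d, Cd3g, Cd4, Il2ra and Ctla4 were listed at 0 in all 6 libraries. The 10 markers measured summed to 3.63 to 4.17 TPM after co-culture and 3.25 to 3.76 TPM in controls. Most of that sum was Ikzf2 (mean 2.36 after co-culture and 2.25 TPM in controls, not past the threshold) and Lck (1.02 and 0.927 TPM). Ptprc was at 0.443, 0.528 and 0.633 TPM after co-culture and 0.326, 0.304 and 0.414 TPM in controls. Of 7 macrophage markers, 1 was lower and 0 higher (65.6 to 78.2 and 90.0 to 97.1 TPM). The lower one, Lyz2, made up most of these sums, with a mean of 44.7 TPM after co-culture and 65.9 TPM in controls. The other 6 did not pass. Of 4 endothelial markers 1 was higher and 2 lower (27.4 to 28.6 and 31.8 to 34.3 TPM), and of 6 smooth muscle and pericyte markers 4 were higher and 1 lower (6123 to 6213 and 5355 to 5427 TPM). The 7 neuron and glia markers summed to at most 2.28 TPM after co-culture and 3.23 TPM in controls.

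Treg co-culture 1 stood apart in transcripts of adult organs. Its 7 heart markers summed to 24.6 TPM and its 5 liver markers to 88.3 TPM, against at most 1.45 and 0.462 TPM in any control. In Treg co-culture 1, 2 and 3, the liver marker Alb was at 64.9, 0.210 and 0 TPM. The heart marker Myl2 was at 10.9, 0.217 and 0 TPM, while the heart marker Myl7 did not follow, at 0.645, 0.976 and 0.227 TPM. Without Treg co-culture 1 the falls of Kcne4 and Kcnab1 and the rises of Kcnn3 and Kcnk13 were still called. Kcnk2 was not called, as was also so without most other single libraries. Kcnn4 fell below the filter and was not tested.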

How the data were processed

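Messenger RNA of 6 libraries (Treg co-culture, n = 3; control, n = 3) was analysed. The authors deposited 1 table of TPM values per gene and library, named by NCBI Gene number. TPM keeps no read depth, so counting error could not be computed. The submitters' processing notes list GRCm38, mm10 and GRCm39 without saying which served the TPM values. Aligner, counting tool and handling of reads shared by paralogs were not given in the sources used here. Symbols came from a RefSeq table of GRCm38.p6, used for names, which matched 21992 of 22186 gene numbers (99.1%).

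All tests used log2(TPM + 1), a scale on which changes of low genes are understated. Genes averaging at least 1 TPM were fitted with limma 3.58.1 in R 4.3.3 (lmFit, eBayes with trend), Treg co-culture against control, adjusting p-values by Benjamini and Hochberg across the 12405 genes fitted. SE are limma's moderated standard errors. Python 3.11.15, pandas 2.3.3 and matplotlib 3.10.9 made tables and plots. The fit was checked on simulated data. No library pair shared more than 60 identical values among 13935 genes above 0.

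Every member averaging at least 1 TPM is named, as are those from 0.5 to 1 TPM and, of the other lists, up to 4 genes with the lowest adjusted p, except 5 genes (2 of them members) that are not reported here, have no point in the plots and enter every count and sum. Atp1b1 and Atp1b2 are named in addition, as the other beta subunits of the pump that were tested. Members and lists were chosen with earlier results of these data known. Libraries of 1 number share a batch per the labels; across genes, the residuals of a co-culture library and the control of its number had correlations of 0.0115, -0.0146 and 0.00402. Alternatives were this block, a pseudocount of 0.1, no filter or 5 TPM, median-of-ratios scaling, quantile normalization, eBayes without trend and each library left out.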

Additional observations from a re-analysis of the deposited data

How the results depend on the processing

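Kcne4 (log2 fold change -2.30 to -2.25) and Kcnab1 (-0.51 to -0.46) stayed past the threshold in all 13 alternatives, and Kcnn3 (0.77 to 1.05) and Kcnk13 (0.98 to 1.90) in the 12 that tested them. With a filter of 5 TPM only 4 members were tested, and 1 was higher. Leaving out each library gave 3 to 4 higher and 2 to 3 lower members, and 10 to 11 higher and 6 to 9 lower genes of the related lists, the lowest without Treg co-culture 3. The replicate block ended the calls of Kcnk2 (adjusted p = 0.0766), Kcnn4 (0.0631) and Slc12a7 (0.0547), leaving 3 members higher and 2 lower, and changed no other call among members and related lists. Kcnk2 was also lost with a pseudocount of 0.1 (0.0520), no filter (0.0656) and quantile normalization (0.0512), Kcnn4 with no filter (0.0563) and without the trend (0.0603), and Kcnk6 was called higher only without the trend (0.0437). Named members whose sign turned when a library was left out were all uncalled: Kcnd1 (-0.151 to 0.00506), Kcnip3 (-0.173 to 0.0571), Kcnk5 (-0.0392 to 0.0251), Kcnh6 (-0.136 to 0.0369) and Kcnma1 (-0.231 to 0.0169). The causes were not tested. Unknown depth and levels under 5 TPM limit most members.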
